A study of Mus musculus with 30 samples.

Results

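The genes described here are 8 CC chemokines (Ccl2, Ccl3, Ccl4, Ccl6, Ccl7, Ccl8, Ccl9 and Ccl12) and the receptors Ccr1 and Ccr2, followed in mouse heart, vessel, kidney and brain during infusion of angiotensin II. They were chosen by name: every probe set annotated to 1 of the symbols alone was taken, which gave 16 of the 34945 single-symbol probe sets and 10 of 18193 genes. Ccr2 had 4 probe sets, Ccl6, Ccl9 and Ccr1 had 2 each, and the other members had 1. The mice were C57BL/6 males, 8 to 10 weeks old, either without angiotensin II (day 0) or given 1500 ng/kg/min by osmotic pump for 1, 3 or 7 days. Heart had 3 arrays on each day, kidney 2 arrays on each day, brain 2 arrays on days 0, 3 and 7, and vessel 1 array on each day, 30 arrays in all. The untreated mice are labelled as having had no angiotensin II; a pump that delivered vehicle alone is not mentioned, so infusion of the peptide and the implantation of the pump cannot be told apart. The labels call the arrays of a group biological replicates.

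CC chemokines are small secreted proteins that bind G protein-coupled receptors on leukocytes and guide them along a gradient. Ccr2 is the receptor through which inflammatory monocytes leave the bone marrow and enter inflamed tissue, and in mouse Ccl2, Ccl7 and Ccl12 are its ligands. Ccl3, Ccl6 and Ccl9 act through Ccr1, and mouse Ccl8 signals through Ccr8. Ccl2 and Ccr2 are well known for bringing monocytes into the hypertensive heart and vessel wall.

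In GRCm38.p6 the chemokines lie in 2 groups on chromosome 11 and the receptors lie on chromosome 9. Ccl2 (82035577 to 82037452), Ccl7, Ccl12 (82101845 to 82103399) and Ccl8 (82115185 to 82116799) follow one another, with gaps of 8.26, 54.3 and 11.8 kb between their annotated ends. Ccl9, Ccl6, Ccl3 and Ccl4 form the other group, in which the annotated ranges of Ccl3 and Ccl4 overlap. Ccr1 and Ccr2 are 133 kb apart. Promoter sequence from RefSeq (GRCm38.p6), in windows of 300 bases, was matched for 7 members: Ccl3, Ccl6, Ccl8, Ccl9, Ccl12, Ccr1 and Ccr2. The window crosses the annotated start of the gene in all of them but Ccr2, where it begins inside the annotated range of the gene.

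3 of these promoters are shown. Ccl12 and Ccl8 are neighbours, 11.8 kb apart, whose values in heart ran differently over the days (described further on), and Ccl9 held the most matches to the searched motifs. Capitals mark matches, on either strand, to 4 motifs: an NF-kB-like one (GGG, any 5 bases, then CC), an AP-1-like one (TGANTCA), a C/EBP-like one (TTNNGNAA) and the TATA motif (TATAAA). Each sequence is on the strand of its gene, 5′ to 3′. Ccl12 is chr11:82101595-82101894 on the plus strand, Ccl8 is chr11:82114935-82115234 on the plus strand and Ccl9 is chr11:83578587-83578886 on the minus strand.
Ccl12: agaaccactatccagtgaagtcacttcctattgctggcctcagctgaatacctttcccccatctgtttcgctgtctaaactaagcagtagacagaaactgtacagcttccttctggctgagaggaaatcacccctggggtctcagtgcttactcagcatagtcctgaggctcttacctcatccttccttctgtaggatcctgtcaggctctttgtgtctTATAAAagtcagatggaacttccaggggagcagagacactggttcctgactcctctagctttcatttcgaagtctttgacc
Ccl8: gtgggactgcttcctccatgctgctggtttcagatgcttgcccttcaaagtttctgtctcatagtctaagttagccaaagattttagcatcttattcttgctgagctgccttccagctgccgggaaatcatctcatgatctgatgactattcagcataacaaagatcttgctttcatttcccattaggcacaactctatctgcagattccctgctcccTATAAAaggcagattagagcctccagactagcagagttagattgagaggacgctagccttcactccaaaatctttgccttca
Ccl9: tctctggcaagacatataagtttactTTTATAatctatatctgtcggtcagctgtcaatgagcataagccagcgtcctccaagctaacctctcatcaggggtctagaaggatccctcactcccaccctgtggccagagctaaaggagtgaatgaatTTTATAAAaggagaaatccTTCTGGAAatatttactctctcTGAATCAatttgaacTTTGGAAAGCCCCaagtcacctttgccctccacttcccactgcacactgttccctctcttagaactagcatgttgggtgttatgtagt

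Ccl12 held the TATA motif from position -31 and Ccl8 from position -32, counted back from the annotated start, and neither window held the other 3 motifs. The Ccl9 window held the AP-1-like motif from -53, the NF-kB-like motif on the minus strand from -35, which overlaps a C/EBP-like match from -38, another C/EBP-like match from -75, and the TATA motif on 1 or the other strand at -224, -94 and -92, of which the last pair overlap. Among the 7 members with a window, the NF-kB-like motif was in 2 (Ccl9 and Ccr1), the AP-1-like in 1, the C/EBP-like in 4 (Ccl3, Ccl9, Ccr1 and Ccr2) and the TATA motif in 3. Of all 32851 promoters of the same table, 50.8%, 7.81%, 40.7% and 13.6% held the 4 motifs in that order, so the NF-kB-like and C/EBP-like letters were common in promoters at large.

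Intensities are the deposited array values, whose medians ran from 35.2 to 37.8 over the 30 arrays. They are specific to each probe set and are compared between arrays only. Tests used limma on log2(intensity + 16), so a log2 difference understates the change of a dim gene. A gene with several probe sets was represented by its brightest one, by mean over the 30 arrays. Genes were tested if they exceeded the 40th percentile of intensities on enough arrays, and p-values were adjusted by Benjamini-Hochberg over all genes tested, with a threshold of 0.05. All 10 members passed this filter in heart and vessel, 9 in kidney (not Ccl3) and 8 in brain (neither Ccl3 nor Ccr1). With whole tissues, a change in the number of cells of a type and a change of RNA per cell cannot be told apart.

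The tissue labels were borne out by their defining markers, and some arrays also held RNA of a neighbouring tissue. Myh6, of heart muscle, read 13289 to 15525 in heart, Umod, of kidney tubule, 10162 to 13017 in kidney, and Snap25, of neurons, 7706 to 8666 in brain. Kidney day 0 replicate 2 and day 3 replicate 2 held the adrenal gene Star at 2147 and 3693, against 14.5 to 17.3 on the other kidney arrays. The vessel arrays held smooth muscle Myh11 at 2484 to 5057 but also fat (Adipoq at 9496 to 12769) and heart muscle, with Myh6 at 4366, 2415, 324 and 3712 on days 0, 1, 3 and 7. Vessel day 3 also held Snap25 at 658 and Th, of catecholamine neurons, at 548. Brain day 0 replicate 2 held the neutrophil gene S100a8 at 3658, against 132 to 384 on the other brain arrays.

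In heart, 9 of the 10 genes were higher after 1 day of angiotensin II than in untreated hearts, and Ccl8 did not pass the test. Of the 9, Ccl3 had passed the filter on low values through the treated hearts alone, so its call is no support for the count. The share of all 13960 genes called higher in that comparison was 4.91%. The median log2 difference of the members was 1.52, against -0.02 over all genes tested. The 3 day 1 hearts differed widely: the median of the members over the day 0 mean was 1.65, 2.29 and 0.54 on the log2 scale in replicates 1, 2 and 3. Replicate 2 was the highest of the 3 for 9 members and replicate 3 was the lowest for 9, with Ccl8 as the exception in both cases.

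Among the ligands of Ccr2, Ccl2 (monocyte chemoattractant protein 1) had the largest difference of the members. Its intensity was 86.0, 66.2 and 84.6 in untreated hearts and 841, 1668 and 318 at day 1. It was 208, 127 and 173 at day 3 and 76.8, 72.6 and 71.3 at day 7. All day 1 hearts lay above all hearts of the other days, the day 3 hearts lay above the untreated ones, and by day 7 the values were back among those of day 0. The day 1 difference was 3.05 ± 0.40 on the log2 scale (SE; 8.30-fold; adjusted p = 0.0018).

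Ccl7, encoded beside Ccl2, followed the same course at a smaller scale. Its intensity was 114, 65.1 and 76.9 at day 0, then 370.4, 591 and 170.1 at day 1. At day 3 it was 139, 107 and 122, and at day 7 it was 69.1, 63.5 and 66.2. The day 1 hearts did not overlap those of any other day, while the day 3 hearts overlapped day 0 through the high first untreated heart. The day 1 difference was 1.83 ± 0.31 (adjusted p = 0.0047).

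Ccl12, the mouse monocyte chemoattractant protein 5, read 220.3, 87.9 and 136 at day 0 and 479, 802 and 287 at day 1. It read 264, 172 and 241 at day 3 and 194, 154 and 190.4 at day 7. The day 1 hearts were above all others, and both later days overlapped day 0. The day 1 difference was 1.68 ± 0.33 (adjusted p = 0.0084).

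The receptor Ccr2 rose with its ligands, but with the widest spread of the members at day 1 (SD of log2 values 1.60, n = 3). Its intensity was 46.3, 55.7 and 58.4 at day 0 and 404, 784 and 75.7 at day 1. It was 109, 236 and 356 at day 3 and 85.7, 127 and 175 at day 7. By its brightest probe set, every treated heart was above every untreated heart. Replicate 3 of day 1 was lower than any heart of days 3 and 7. The other probe sets of Ccr2 overlapped day 0. At day 7 their lowest hearts read 43.2, 60.4 and 11.7, against 43.5, 74.5 and 12.7 for their highest untreated hearts. The day 1 difference of the brightest probe set was 2.18 ± 0.60 (adjusted p = 0.033), and at day 3 it was 1.71 ± 0.60 (adjusted p = 0.29).

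Ccl8, the monocyte chemoattractant protein that uses Ccr8 in mouse, did not share this course. Its intensity was 183, 154 and 463 at day 0 and 283, 230.2 and 415 at day 1. It was 463, 295 and 704 at day 3 and 459, 536 and 720.2 at day 7. The group means climbed from day 0 to day 7, yet untreated replicate 3, at 463, lay inside the range of both later days. The difference from day 0 was 0.32 ± 0.37 at day 1 (adjusted p = 0.64), 0.91 ± 0.37 at day 3 (adjusted p = 0.34) and 1.19 ± 0.37 at day 7 (95% interval 0.38 to 2.00, adjusted p = 0.41). None of these passed the test.

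**Figure D1:**
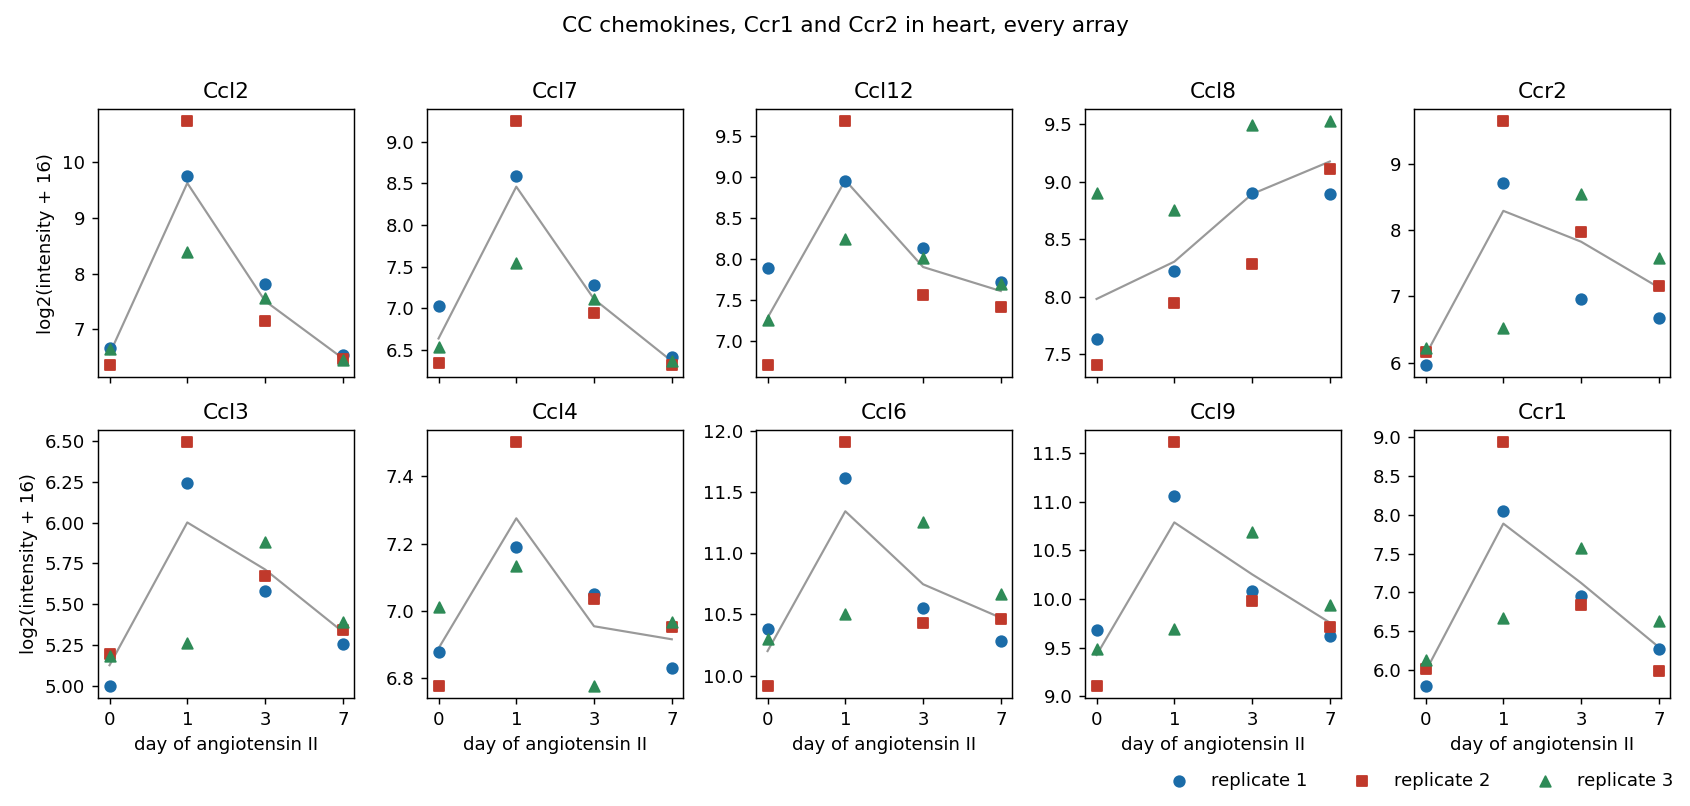
Log2(intensity + 16) of each gene in heart (vertical axis, scaled for each gene) by day of angiotensin II (horizontal axis, evenly spaced); each point is 1 array, its shape and colour give the replicate number, and the grey line joins the means of 3 arrays. The day 1 arrays of Ccl2, Ccl7 and Ccl12 lie above those of all other days, replicate 3 is the lowest day 1 heart for 9 of the 10 genes, and Ccl8 has its highest mean at day 7.

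Of the ligands of Ccr1, Ccl6 and Ccl9 rose together. Ccl6 read 1319, 950.3 and 1247 at day 0 and 3115, 3834 and 1439 at day 1. It was 1488, 1364 and 2428 at day 3 and 1232, 1395 and 1613 at day 7. Replicate 3 of day 1 was only slightly above the highest untreated heart, and the difference was 1.14 ± 0.31 (adjusted p = 0.028). Ccl9 read 804, 536 and 701 at day 0 and 2114, 3117 and 810.2 at day 1. It was 1070.3, 997 and 1638 at day 3 and 773, 821 and 967 at day 7. Here too 2 hearts carried the rise and replicate 3 stood next to the untreated ones, with a difference of 1.36 ± 0.37 (adjusted p = 0.029).

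Ccl3 and Ccl4, macrophage inflammatory proteins 1 alpha and 1 beta, changed least of the called members, and Ccl3 was dim. Ccl3 read 16, 20.7 and 20.3 at day 0 and 59.9, 74.3 and 22.4 at day 1. It was 32.0, 35.1 and 43.0 at day 3 and 22.3, 24.6 and 26 at day 7. Its untreated values lay under the lowest filter threshold of any array (22.8), so it passed the filter through the treated hearts and had to differ. Its day 1 difference was 0.88 ± 0.23 (adjusted p = 0.028). Ccl4 read 102, 93.6 and 113 at day 0 and 130.03, 165 and 124 at day 1. It was 117, 115 and 93.7 at day 3 and 97.7, 108 and 109 at day 7. That is a narrow range, and its day 1 difference was 0.39 ± 0.12 (1.31-fold; adjusted p = 0.047).

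The receptor Ccr1, carried by monocytes and neutrophils, read 39.8, 48.9 and 54.4 at day 0 and 249, 473 and 85.9 at day 1. It was 108, 98.9 and 175 at day 3 and 61.1, 47.7 and 83.1 at day 7. By its brightest probe set, the hearts of days 1 and 3 were all above the untreated ones and those of day 7 overlapped them. The second, dim probe set of Ccr1 overlapped day 0 already at day 1. It read 7.29 on its lowest day 1 heart and 7.47 on its highest untreated heart. The day 1 difference of the brightest probe set was 1.90 ± 0.41 (adjusted p = 0.012).

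Which members passed at day 1 depended on single hearts. Ccl2, Ccl7 and Ccl12 passed with each of the 6 day 0 and day 1 hearts left out in turn, and Ccr1 in 4 of those 6 fits. Ccl3, Ccl4, Ccl6, Ccl9 and Ccr2 passed in 1 of the 6, the fit without day 1 replicate 3. The number of members called was 9 without that heart, 3 without day 1 replicate 1 or day 0 replicate 1, and 4 without day 1 replicate 2, day 0 replicate 2 or day 0 replicate 3. Ccl8 passed in none. The share of all genes called in each of these fits is not given, so the counts show only how far the calls hang on single hearts.

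At day 3, limma called none of the 10 members against day 0, with 6 at an unadjusted p under 0.05; the share of all genes called higher was 0.0716%. The difference was above 0 for all 10, with a median of 0.72 against -0.02 over all genes, and was 0.95 ± 0.40 for Ccl2 and 1.14 ± 0.41 for Ccr1. By the brightest probe sets, 6 members (Ccl2, Ccl3, Ccl6, Ccl9, Ccr1 and Ccr2) had all 3 day 3 hearts above all 3 untreated hearts. So did 7.41% of all genes. The second probe set of Ccl6 overlapped, at 441 on its lowest day 3 heart and 443 on its highest untreated heart. At day 7 limma called no member, with 1 (Ccl8) at an unadjusted p under 0.05. The share of all genes called higher was 0.043%. The median difference was 0.29. By the brightest probe sets, Ccl3 and Ccr2 were the members with all day 7 hearts above all untreated hearts, as were 9.36% of all genes. The other probe sets of Ccr2 overlapped day 0 at day 7. Ccl2 was at -0.08 ± 0.40 and Ccl7 at -0.27 ± 0.31. Ccl3 had passed the filter through the treated hearts alone, so it is no support for the counts of days 3 and 7.

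The fall after day 1 was tested directly, in comparisons that share the day 1 hearts with the one above. From day 1 to day 3, Ccl2 fell by 2.11 ± 0.40 (adjusted p = 0.018) and Ccl7 fell by 1.35 ± 0.31 (adjusted p = 0.034); 1.48% of all genes were called lower. Ccr2 differed by -0.47 ± 0.60 (95% interval -1.77 to 0.84), which leaves its course between these days unresolved. By day 7, Ccl2 fell by 3.13 ± 0.40 (adjusted p = 0.0048) and Ccl7 fell by 2.10 ± 0.31 (adjusted p = 0.0077). Ccl12 fell by 1.35 ± 0.33 (adjusted p = 0.037) and Ccr1 fell by 1.59 ± 0.41 (adjusted p = 0.048), where 2.07% of all genes were called lower. Ccl8 was 0.87 ± 0.37 higher at day 7 than at day 1 (adjusted p = 0.19). Without day 1 replicate 3 the counts of members called lower were 8 at day 3 and 9 at day 7. Without day 1 replicate 1 they were 0 and 1, without day 1 replicate 2 they were 1 and 2, and without day 3 replicate 2 or day 3 replicate 3 the day 3 count was 0 or 1. Leaving out any day 7 heart gave 2 at day 7. These counts, too, stand without the share of all genes called lower in each fit and describe stability only. No member, and 0% of all genes, was called between days 3 and 7, with 2 members at an unadjusted p under 0.05.

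Probe sets of 1 gene did not all respond alike. Fitted as single probe sets at day 1, 14 of the 16 passed the filter in heart, among 24416 tested. Both probe sets of Ccl6 (1.14 and 1.35) and of Ccl9 (1.36 and 1.42) were called, with nearly equal differences. For Ccr2 the brightest probe set gave 2.18 and another 1.14, both called, while another gave 0.73 (adjusted p = 0.067) and the fourth, like the second probe set of Ccr1, did not pass the filter. Ccl4, tested as a probe set, had an adjusted p of 0.05, above the threshold before rounding, and was not called.

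Vessel had 1 array on each day, so its values have no replicate check and no test; a member is counted where it was at least 2-fold from the day 0 array. By this count 3 of the 10 members were higher at day 1, 8 at day 3 and 8 at day 7. Of all 14242 genes, 0.688%, 4.94% and 4.23% were that much higher. The median difference of the members was 0.84, 2.21 and 2.15 on the log2 scale. Ccl3 and Ccl4 stayed under 2-fold on every day. Ccl12 read 22.4 on the day 0 array, under the lowest filter threshold of any array (22.8). It passed the filter through the treated vessel arrays alone, so its place in the counts of all 3 days is no support for them.

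Ccl8 had the largest difference in vessel, with intensities of 206, 527, 2991 and 1191 on days 0, 1, 3 and 7, or 3.76 on the log2 scale at day 3. Ccl9 read 331, 712, 2692 and 2203, and Ccl6 read 802, 1211, 3864 and 2426. All 3 were highest on the day 3 array and still above day 1 at day 7. Ccl2 read 33.1, 70.5, 207 and 165, Ccl7 read 30.1, 67.5, 143 and 127, and Ccl12 read 22.4, 117, 228 and 188. These Ccr2 ligands had alike courses, with the day 7 array below day 3 and above day 1. Of the receptors, Ccr1 read 37.2, 37.2, 177 and 314, and Ccr2 read 85.4, 183, 611 and 633, nearly level between days 3 and 7 (2.63 and 2.68 on the log2 scale from day 0). The second probe set of Ccr1 was slightly higher at day 3 (0.53) than at day 7 (0.44), and a dimmer one of Ccr2 stood at 0.46 and 0.45. Another probe set of Ccr2 stood at 0.76 and 1.17, and the last at 0.30 and 0.32. Ccl3 read 15.9, 22.1, 43.5 and 16.8, and Ccl4 read 120.4, 110.1, 135 and 96.3, neither with a lasting shift.

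Each member's highest day was set side by side in heart and vessel, as a description. In heart the highest mean fell on day 1 for 9 members and on day 7 for Ccl8, and in vessel the highest array was day 3 for 8 members and, by their brightest probe sets, day 7 for Ccr1 and Ccr2, the latter nearly level with day 3. By the brightest probe sets, no member had its highest day in common between the tissues. A dim probe set of Ccr2, which did not pass the filter in heart, was highest at day 3 in both. Its mean log2 value in heart was 5.18 at day 3 and 5.16 at day 1. By the brightest probe sets, the change from day 0 to the highest day was larger in vessel for 7 members. It was larger in heart for 3 (Ccl2, Ccl4 and Ccl7). Ccl3, counted as larger in vessel, was nearly tied at 0.88 in heart and 0.90 in vessel. Ccl3 in both tissues and Ccl12 in vessel passed the filter through treated arrays alone. They are therefore no support for the counts of highest days or of larger changes. The split ran from 5 to 8 members larger in vessel when single heart arrays were left out. For Ccl2 it was 3.05 in heart and 2.18 in vessel, for Ccl7 1.83 and 1.78, and for Ccl12 1.68 and 2.67. For Ccl8 it was 1.19 in heart and 3.76 in vessel, and for Ccl9 1.36 and 2.97. By their brightest probe sets, Ccr1 changed by 1.90 in heart and 2.63 in vessel, and Ccr2 by 2.18 and 2.68. Another probe set of Ccr2 changed more in heart, by 0.73 against 0.32, and another was nearly tied at 1.14 and 1.17. The dim probe set of Ccr2 went from 4.76 to 5.18 in heart and from 4.79 to 5.25 in vessel. The second probe set of Ccr1 went from 4.52 to 5.61 in heart and from 4.53 to 5.07 in vessel, the larger change in heart. The vessel level on its highest day lay above all 3 hearts of their highest day for Ccl6 and Ccl8, below all 3 for Ccl2, Ccl7 and Ccl12, and among them for the other 5.

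**Figure D2:**
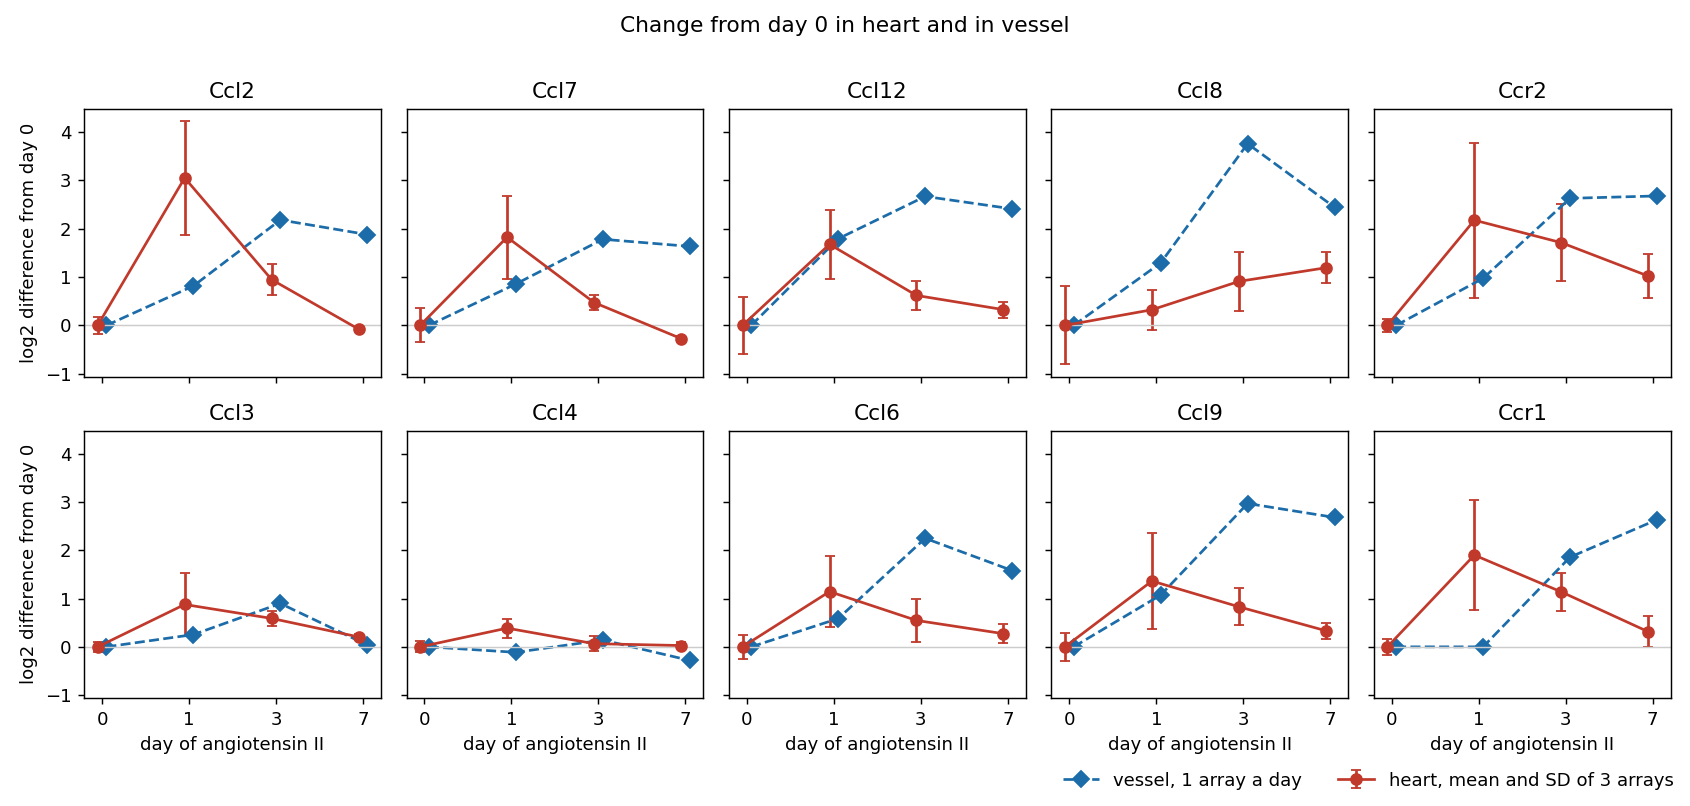
Log2 difference from day 0 of the same tissue (vertical axis, the same for all panels) by day of angiotensin II (horizontal axis, evenly spaced); red circles are the mean and SD of 3 heart arrays and blue diamonds are single vessel arrays without an error. In heart 9 genes are highest at day 1, whereas in vessel 8 are highest at day 3 and the 2 receptors at day 7 (Ccr2 nearly level with day 3), with Ccl8 reaching 3.76 in vessel. Each gene is shown by its brightest probe set. Ccl3 in both tissues and Ccl12 in vessel passed the filter on low values through treated arrays alone.

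The vessel arrays differed in tissue make-up in the same days. The summed intensity of 7 heart muscle markers was 19717, 10559, 1942 and 18536 on days 0, 1, 3 and 7, lowest on the array where 8 members were highest. The sum of 7 brain markers was 261, 401, 1993 and 382, and that of 8 fat markers was 88206, 92338, 80437 and 65115. The sum of 8 fibroblast markers was 21591, 14386, 44289 and 39084 and that of 6 B cell markers 1609, 1014, 5254 and 2534, both highest at day 3 like most members. At day 7 the heart muscle sum was close to that of day 0 while 8 members remained at least 2-fold higher. The part of these markers in the vessel values was not tested.

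In kidney no member was called on any day. At day 1 limma called 0 of 9 (0 at an unadjusted p under 0.05), while 0.262% of all genes were called higher. At day 3 it called 0 of 9 (0 unadjusted) and at day 7 0 of 9 (1 unadjusted, Ccl7), with 0% of all genes called higher on either day. Ccl2 read 35.3 and 32.6 at day 0, 37.9 and 31.5 at day 1, 29.4 and 22.2 at day 3, and 32.8 and 75.6 at day 7. Its day 1 difference was 0.02 ± 0.26 (95% interval -0.60 to 0.64). The last of these arrays, day 7 replicate 2, was above the day 0 mean for all 10 members, with Ccl6 at 894 against 254 on the other day 7 array and Ccl8 at 418 against 71.8. Ccl6 read 193 and 358 at day 0, 242 and 509 at day 1, and 92.8 and 546 at day 3, with the second array the higher on every day. Ccl9 read 122 and 168 at day 0, 139 and 313 at day 1, 47.4 and 248 at day 3, and 121 and 455 at day 7, again with the second array the higher. Ccl12 read 41.9 and 26.3 at day 0 and 16.9 to 18.1 on days 1 and 3, under every filter threshold. Ccr1 stayed between 22.7 and 39.7, Ccr2 between 37.3 and 84.2 and Ccl4 between 71.0 and 91.4 over the 8 arrays. Leaving out the 2 arrays with adrenal markers, or any 1 array, gave a count of 0 members on each day as well.

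The difference between the tissues at day 1 was tested in 1 fit over heart, kidney and brain. The heart change exceeded the kidney change by 3.03 ± 0.56 for Ccl2 (adjusted p = 0.0065), by 2.23 ± 0.50 for Ccl12 (adjusted p = 0.019) and by 1.66 ± 0.43 for Ccl7 (adjusted p = 0.039). Of all 14656 genes, 1.02% had a change called higher in heart. The 3 genes are the Ccr2 ligands. For Ccl12 the heart change was 1.68. In the kidney fit its day 1 change was -0.56 ± 0.31 (limma adjusted p = 0.41). That fall, to 17.2 and 18.1, ended under every filter threshold and makes up the rest of its difference. Ccr2 itself, at 2.43 ± 0.82 (adjusted p = 0.11), and Ccr1, at 1.96 ± 0.57 (adjusted p = 0.059), did not pass. Nor did Ccl3 (1.11), Ccl4 (0.59), Ccl6 (0.75), Ccl8 (0.45) or Ccl9 (0.86). Without the 2 kidney arrays that held adrenal markers, Ccl2 gave 3.07 (adjusted p = 0.029), Ccl12 2.46 (adjusted p = 0.045) and Ccl7 1.79 (adjusted p = 0.11). Day 1 kidneys also held more fat than the day 0 kidneys (Adipoq at 2318 and 3335 against 102 and 110), and its part was not tested. Without heart day 1 replicate 3 the count was 7, and without heart day 0 replicate 2, kidney day 0 replicate 1, kidney day 1 replicate 1 or kidney day 1 replicate 2 it was 1. Without heart day 0 replicate 3, heart day 1 replicate 1, heart day 1 replicate 2 or kidney day 0 replicate 2 it was 2. The share of all genes called in those fits is not given. No member passed this test at day 3 (5 at an unadjusted p under 0.05) or at day 7 (0 unadjusted), where 0.0614% and 0.0273% of all genes passed in either direction.

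In brain the 8 members that passed the filter stayed low. Limma called 0 of 8 at day 3 (1 at an unadjusted p under 0.05, Ccl4) and 0 of 8 at day 7 (2 unadjusted, Ccl4 and Ccl7), with 0% of all genes called higher on each day. Ccl7 read 13.3 and 17.5 in untreated brain, under the lowest filter threshold (22.8). It passed the filter through the treated brains alone, so its unadjusted p is no support. Ccl2 read 21.8 and 24.7 at day 0, 25.7 and 30.9 at day 3, and 28.7 and 26.3 at day 7. Ccl4 read 53.2 and 56.1 at day 0, 68.1 and 86.5 at day 3, and 75.8 and 78.9 at day 7, a difference of 0.40 ± 0.13 at day 7 (adjusted p = 0.67). Day 0 replicate 2, the array with neutrophil genes, was the higher of the 2 untreated brains for all 10 members, with Ccl6 at 84.9 against 47.6. No member passed the test of heart against brain change at day 3 (2 unadjusted) or day 7 (1 unadjusted), where 0.829% and 0.368% of all genes passed in either direction. The unadjusted ones were Ccr1 (1.32) and Ccr2 (1.73) at day 3 and Ccl4 (-0.38) at day 7.

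**Figure D3:**
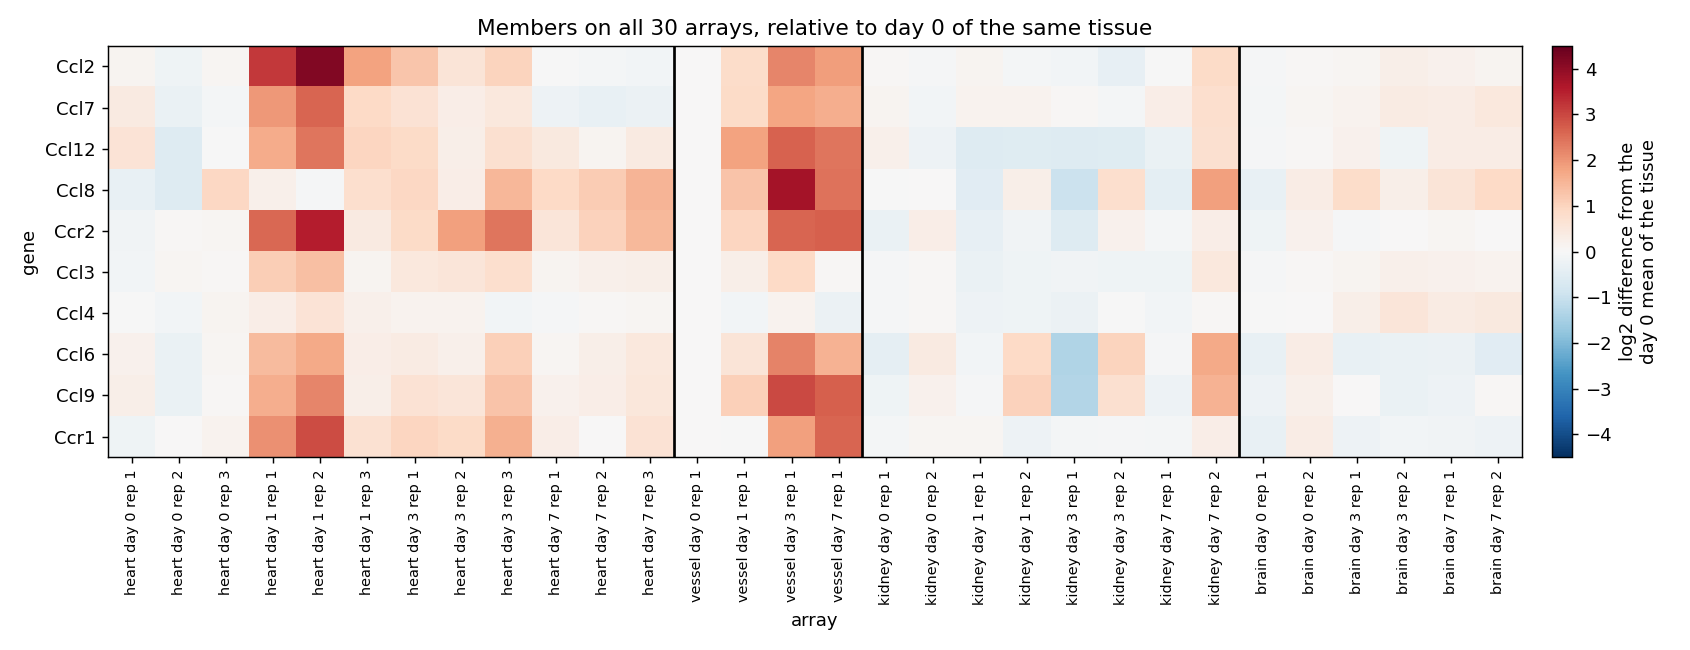
Log2 difference of each gene (rows) on each array (columns) from the day 0 mean of the same tissue, red for higher and blue for lower, with black lines between tissues. Day 1 heart replicates 1 and 2 and the day 3 and day 7 vessel arrays are the reddest columns, the kidney columns are mixed apart from day 7 replicate 2, and the brain columns are pale.

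Differences between untreated tissues were common over all genes, and the members' counts are given beside those shares. In the joint fit, 4 of 10 members (Ccl6, Ccl7, Ccl9 and Ccl12) were higher in untreated heart than in untreated kidney, where 28.6% of all genes were called higher. The difference was 2.07 ± 0.57 for Ccl6 (adjusted p = 0.0040), 2.11 ± 0.56 for Ccl9 (adjusted p = 0.0033) and 1.65 ± 0.35 for Ccl12 (adjusted p = 0.00047). Ccl2 was at 0.92 ± 0.40 (adjusted p = 0.057). Against untreated brain, 7 of 10 members were higher in heart (Ccl2, Ccl4, Ccl6, Ccl7, Ccl8, Ccl9 and Ccl12), where 37.6% of all genes were. Ccl6 differed most, at 3.88 ± 0.57. In kidney against brain, 3 of 9 tested members (Ccl4, Ccl6 and Ccl8) were higher, a share near the 33.7% of all genes, and 1 member was without brain day 0 replicate 1 or without kidney day 0 replicate 2. Untreated Ccr1 and Ccr2 did not pass between any of these tissues. Ccl6 passed in all 3 of these comparisons, and the untreated vessel, 1 array, read 802.

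Within heart the members fell into like and unlike courses, given here as correlations over 12 arrays that share 4 days. Ccl2 and Ccl7 had a Pearson r of 0.986 (0.954 after removing the day means), Ccl6 and Ccl9 had 0.985 (0.980), and Ccr1 and Ccr2 had 0.923 (0.914). Ccl8 stood apart, with r from -0.321 (Ccl7) to 0.104 (Ccr2). Among the tested heart genes that are not members, those most like Ccl2 were Bcr (0.982), Ctps (0.973) and Hspa1a (0.972). Those most like Ccr2 were Ifi30 (0.986), Actn1 (0.978) and Rab32 (0.977). For Ccl6 they were Fxyd5 (0.985), Pdpn (0.978) and AI662270 (0.971), and for Ccl8 Vegfd (0.876), Igfbp2 (0.850) and Fut11 (0.825). Inhba, which encodes an activin subunit, was among the 3 nearest non-member genes of Ccl3 (0.978), Ccl9 (0.973) and Ccr1 (0.972).

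The remaining CC chemokines, their receptors and genes of receptor signalling are given by count and value in heart at day 1. Of 8 tested other CC chemokines 1 was higher, Ccl17 (0.93 ± 0.20, adjusted p = 0.011), and none was lower. Ccl5 was at 0.56 ± 0.34 (adjusted p = 0.31) and Ccl11, which draws in eosinophils, at 0.06 ± 0.12. Of 7 other receptors 1 was higher, the scavenging receptor Ackr4 (0.68 ± 0.16, adjusted p = 0.016). Of 21 genes of receptor signalling 3 were higher: Rac2 (0.88), the GTPase of blood cells, the Src-family kinase Fgr (0.67) and Cdc42 (0.42). The share of all genes called higher was 4.91%, and medians of the 3 lists were 0.07, -0.04 and 0.23. Limma called none of these 3 lists against day 0 on the later days, with 1, 0 and 2 genes of the lists at an unadjusted p under 0.05 at day 3 and 0, 0 and 1 at day 7. In vessel, Ccl5 was 1.04, 1.45 and -0.54 from its day 0 value on days 1, 3 and 7.

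Of 19 tested genes for NF-kB and AP-1 factors and cytokines that are known to induce chemokines, 10 were higher in heart at day 1. Of all genes, 4.91% were called higher, and the list had none lower and a median of 0.56. The largest differences were those of Il6 (3.01 ± 0.56, adjusted p = 0.0069), Fos (2.34 ± 0.29, adjusted p = 0.0014), Cebpd (1.66 ± 0.26, adjusted p = 0.0037) and Il1b (1.54 ± 0.40, adjusted p = 0.027). Limma called none of the list at day 3 (8 at an unadjusted p under 0.05) or at day 7 (5 unadjusted). From day 1 to day 7, 3 of them were lower: Il6 (-2.54), Junb (-1.07) and Csf1 (-0.69). The share of all genes called lower there was 2.07%.

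Markers of blood leukocytes moved with the members from heart to heart. Beside the counts of called markers below, 4.91% of all genes were called higher in heart at day 1. Of 11 monocyte markers measured beside Ccr2, 6 were higher at day 1, led by Chil3 (5.08 ± 0.53, adjusted p = 0.00073), S100a4 (2.13), Hp (1.90) and Plac8 (1.81). Their summed intensity ran from 6885 to 8639 in untreated hearts, 9478 to 19344 at day 1, 9286 to 13974 at day 3 and 8399 to 10222 at day 7. Relative to day 0 their mean was 1.68, 2.27 and 0.72 on the log2 scale in the 3 day 1 hearts, and the mean of the members was 1.62, 2.15 and 0.65, the same order of hearts. Of 13 tested neutrophil markers 6 were higher, with S100a8 at 3.40 ± 0.80 and Lcn2 at 3.08 ± 0.40. Their sums ran from 593 to 1711, 2355 to 9300, 842 to 2081 and 744 to 2012 on days 0, 1, 3 and 7. The granule genes Elane and Mpo read 15.1 to 17.4 and 22.0 to 26.1 at day 1, at or under the filter thresholds. Of 19 macrophage markers 4 were higher (Arg1, Lgals3, Cd68 and Mrc1), with sums of 8215 to 10675, 10652 to 16595, 11548 to 16826 and 9723 to 14739. The part of these cells in the values of the members was not tested.

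**Figure D4:**
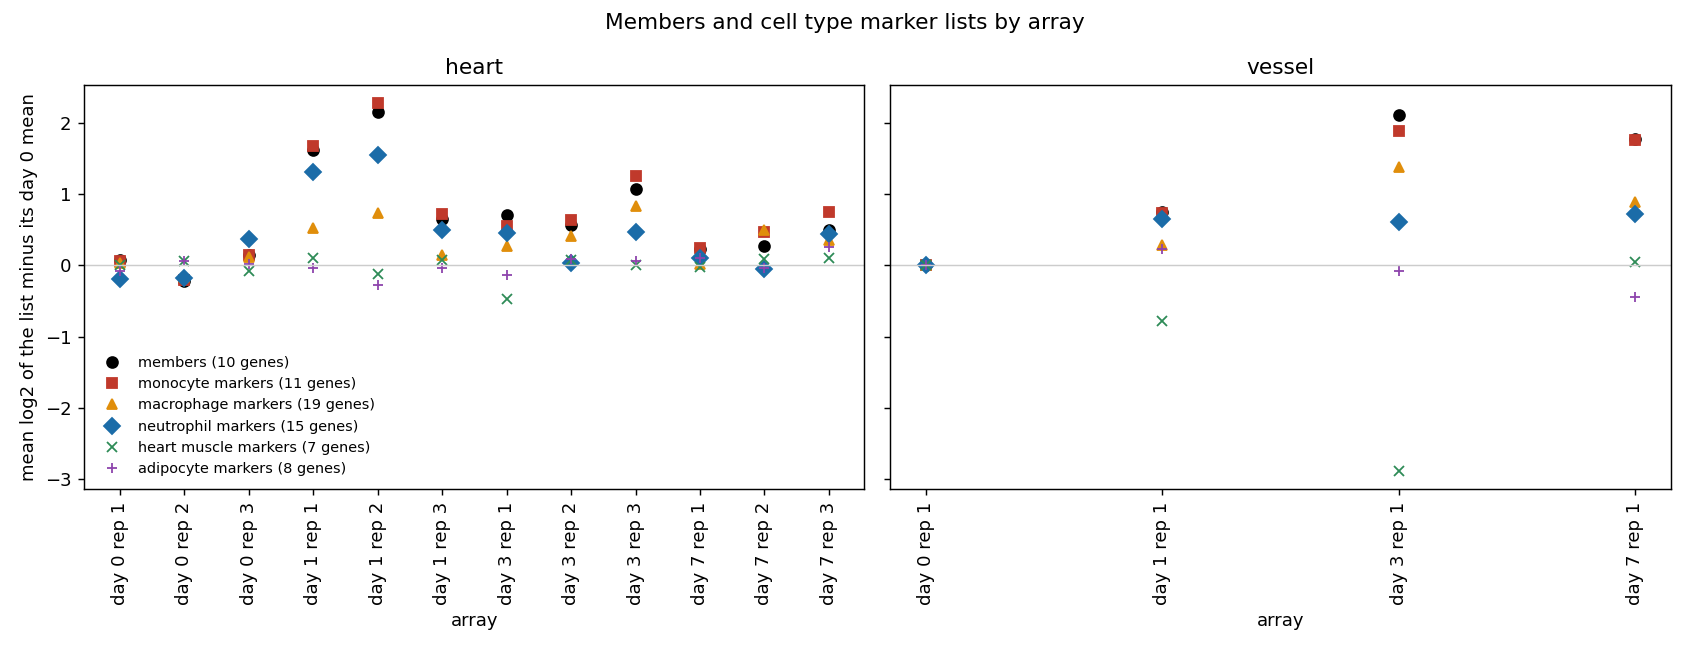
Mean log2(intensity + 16) of each gene list minus its day 0 mean (vertical axis) on each array (horizontal axis) in heart and vessel; black circles are the 10 members and the other symbols are marker lists named in the key. In heart the monocyte markers stand close to the members on every array and heart muscle markers stay near 0 apart from day 3 replicate 1, and in vessel the heart muscle markers drop at day 3 where the members are highest.

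In vessel the monocyte markers were 0.74, 1.88 and 1.76 above day 0 on days 1, 3 and 7, beside 0.75, 2.11 and 1.77 for the members. By count, 4, 9 and 9 of 11 were at least 2-fold higher. Macrophage markers reached that size in 1, 14 and 9 of 19, and neutrophil markers in 3, 4 and 4 of 12. Of all genes, 0.688%, 4.94% and 4.23% were at least 2-fold higher in vessel on these days. In kidney day 7 replicate 2, the array with high members, the monocyte markers were 0.91 above day 0 and the members 0.86. At day 1 the kidneys differed in this. The mean log2 value of the monocyte markers ran from 7.41 to 7.83, against 6.94 to 7.06 at day 0. That of the members stayed level, at 6.09 to 6.37 against 6.19 to 6.34. The neutrophil sums in kidney were 1226 to 3582 at day 1 and 444 to 501 at day 0. Limma called no monocyte, macrophage or neutrophil marker in a kidney or brain comparison with day 0, with 0 to 4 genes of a list at an unadjusted p under 0.05.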

How the data were processed

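Total RNA was hybridized to Affymetrix mouse genome arrays, per the labels. The authors deposited 1 intensity for each probe set of each array. The submitters' processing notes name Affymetrix Expression Console, with no summary method stated. The deposited intensities are on a linear scale, and 45101 probe sets include 64 controls; 34945 carry 1 symbol, 932 several and 9160 none, by the platform annotation.

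From these values log2(intensity + 16) was computed. Each gene was read from its probe set with the highest mean, kept where its intensity exceeded the 40th percentile on a number of arrays no smaller than the smallest group fitted, and fitted with limma 3.58.1 (R 4.3.3) by tissue, or over heart, kidney and brain for differences between tissues. The groups came from the labels. The scripts were tested on simulated data. Figures used matplotlib 3.10.9.

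The members and lists were chosen with earlier results of these data known. All members enter every comparison and are given by value or by count; of each pathway or marker list up to 4 called genes, ordered by size, and for each member the 3 non-member genes with the highest correlation in heart, of which some are given. Genes named outside that rule (Star, Myh6, Adipoq, Umod, Snap25, Th, Myh11, Elane, Mpo, Ccl5 and Ccl11) were chosen after their values were seen. The number of arrays limits the precision. Alternatives were other added values, filters, normalization, probe set rules, variance models, blocks and arrays left out.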

Additional observations from a re-analysis of the deposited data

Results flagged for a closer look

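3 members had a change at day 1 that differed between heart and kidney by the test of the difference itself. The heart change was larger by 3.03 on the log2 scale for Ccl2, by 2.23 for Ccl12 and by 1.66 for Ccl7, with 3 hearts and 2 kidneys a day. For Ccl12 this includes an uncalled change of -0.56 in kidney. Over 21 alternatives the Ccl2 difference ran from 2.48 to 3.65 and passed in all 21, that of Ccl12 ran from 1.68 to 2.66 and passed in 17, and that of Ccl7 ran from 1.27 to 2.12 and passed in 9 (adjusted p from 0.00016 to 0.13).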

How the results depend on the processing

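No alternative reversed a called direction; of values not called, 19 changed sign under an alternative setting and 67 when an array was left out. The number of members called at heart day 1 against day 0 (9) was 5 without the filter on low values, 5 with trended and robust variances and 3 with only the groups compared, and ran from 3 to 9 with single arrays left out. Day 3 and day 7 against day 0 (0 each) gave 1 each with only the groups compared. Day 3 against day 1 (2) gave 1 without the filter, 1 with trended variances and 0 with only the groups compared, and 0 to 8 with arrays left out. Day 7 against day 1 (4) gave 2 without the filter, 2 with the mean of all probe sets, 2 with trended variances, 0 with only the groups compared, and 1 to 9 with arrays left out. The settings with fewer groups leave fewer samples for the variance; for the others the cause was not tested. Heart against kidney at day 1 (3) ran from 1 to 7 with arrays left out. It was 6 with day and number as a correlated block, an alternative chosen after seeing the data, as was leaving out the kidney arrays with adrenal markers. Untreated kidney against brain (3) ran from 1 to 3 and untreated heart against kidney (4) from 3 to 4. Shares of all genes called under these settings are not given, so the counts describe stability alone. In vessel an added value of 1 gave 6 members at least 2-fold higher at day 1 (3 with 16). With single arrays left out, 8 to 9 members were highest at day 1 in heart and later in vessel (9), and 5 to 8 had the larger change in vessel (7). Same-numbered arrays correlated between days from -0.331 to 0.147 in heart, -0.0854 to 0.254 in kidney and -0.648 to 0.467 in brain, so the numbers were not taken as pairs; with the replicate block 6 members were called at heart day 1, 2 at day 3 against day 1 and 3 at day 7 against day 1. Values at or under the filter thresholds of 22.8 to 26.6 occurred for Ccl3 in every tissue, for Ccl12 in vessel, kidney and brain, for Ccl2, Ccl7 and Ccr1 in kidney and brain, and for Ccl8 and Ccr2 in brain; a change would be understated there.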
